A study of Mus musculus with 24 samples.

Results

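mmu-miR-148a, mmu-miR-148b and mmu-miR-152 (mmu for Mus musculus, left out below) form a small miRNA family that shares 1 seed, the stretch near the 5′ end that pairs with target mRNAs. They were followed across the JygMC(A) mouse model of mammary cancer. The members were taken by name from the mouse nCounter miRNA panel, and all 3 were found among its 566 mouse probes. The panel counts miRNAs with colour-coded hybridization probes and without amplification. The 24 samples were laser captured carcinoma areas (n = 5), EMT-like areas (n = 7) and lung metastases (n = 4), normal mammary gland (NMG, n = 2), normal lung parenchyma (n = 2), monolayer cultures (n = 2) and 3D-spheres (n = 2). PT stands for both kinds of primary tumor area combined (n = 12).

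The tumors came from JygMC(A) cells that carry GFP and luciferase, placed in the fourth mammary fat pad of young adult female BalbC nude mice, which lack T cells. The monolayers and the spheres, of the third generation on ultra-low adherent plates, were the same line in culture, so every tumor sample descends from 1 cell line. Normal lung and NMG came from 2 animals that each gave both tissues and had labels of their own kind, so tissue state and this set of samples cannot be told apart. Carcinoma, EMT-like and metastasis samples shared animals, and 1 sample of each kind carried a label with 3 animals and was treated as 1 sample. Tumor animals had lettered or numbered labels, which served as the series of animals below.

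miRNAs guide silencing complexes to mRNAs through the seed, so members of 1 seed family can act on overlapping sets of targets. The miR-148 and miR-152 family is best known for targeting Dnmt1, the maintenance DNA methyltransferase, and has been described in many tumor types as lower than in the normal tissue. miR-148a is also abundant in mammary epithelium and milk. miR-152 lies in Copz2 and miR-148b in Copz1, a pair of related genes for coatomer subunits of vesicle transport.

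The mature sequences in RefSeq (GRCm38.p6) show what the members share and where they differ. They were matched to the panel names as the -3p arm. The seed, bases 2 to 8, is in capitals.

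miR-148a-3p: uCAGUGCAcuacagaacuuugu
miR-148b-3p: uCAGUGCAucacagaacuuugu
miR-152-3p: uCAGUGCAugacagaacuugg

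Counted from 1 at the 5′ end, miR-148a-3p and miR-148b-3p differed at 2 of 22 positions, C9U and U10C. miR-148a-3p and miR-152-3p differed at 3 of the 21 positions compared, C9U, U10G and U20G, and miR-148b-3p and miR-152-3p at 2 of 21, C10G and U20G. Of 1679 mature mouse entries, 3 held this seed, and all 3 were on the panel. The mature forms lie at chr6:51269829-51269850 on the minus strand for miR-148a-3p, chr15:103285185-103285206 on the plus strand for miR-148b-3p and chr11:96850439-96850459 on the plus strand for miR-152-3p. The Copz1 gene span holds the miR-148b hairpin and the Copz2 gene span holds that of miR-152. The predicted gene Gm38821 spans the miR-148a hairpin.

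A separate set of relatives carries the same letters AGUGCA shifted by 1 base, so that their seeds differ from the family seed. These are shown because they serve as a neighbouring group on the same panel.

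miR-130a-3p: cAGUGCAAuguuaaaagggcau
miR-130b-3p: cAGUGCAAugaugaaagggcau
miR-301a-3p: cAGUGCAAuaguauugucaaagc

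The deposited values are whole counts from which the mean of 6 negative controls of the lane had been subtracted, and they were not scaled between lanes. A lane's detection limit was set 2 SD above the mean of its negative controls and lay between 4 and 20.6 in tumor samples. The sum of mouse miRNA values was 61497 to 183539 in tumor samples, 525225 to 559660 in NMG, 24418 to 44953 in cultures, and 589588 and 2334955 in the normal lung samples. Normal lung replicate 2 thus stood apart, and 15 of 33 viral probes were above its limit, as in NMG (15 and 13) but not in tumor samples (0 to 7). Normalized values below are deposited values divided by a TMM lane factor. Differences are on the scale log2(normalized value + 1) and were tested in 1 limma fit with Benjamini-Hochberg adjustment over 583 probes. A probe was called at an adjusted p under 0.05. Since probes differ in efficiency, a member's level is compared with its own level in other groups, not with that of another member.

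All 3 members were above the detection limit in all 20 tissue samples, and in the cultures each was above it in only 1 of 4 lanes. The order of the groups differed between members. miR-148a was highest in NMG, at 5993 ± 1975 normalized (SD, n = 2), followed by carcinoma at 2950 ± 1027 (n = 5), metastasis at 2293 ± 782 (n = 4), normal lung at 1938 ± 168 (n = 2) and EMT-like areas at 1385 ± 715 (n = 7). Only NMG and carcinoma, and EMT-like areas and monolayers, were neighbours in this order without overlap. miR-148b was highest in normal lung, at 296 ± 28.2, and next in NMG, at 182 ± 67.0. Metastasis (54.5 ± 19.8), carcinoma (53.3 ± 15.8) and EMT-like areas (43.1 ± 17.3) followed and overlapped. miR-152 was highest in NMG, at 673 ± 1.78, then in normal lung at 465 ± 61.1, EMT-like areas at 237 ± 72.5, carcinoma at 197 ± 76.6 and metastasis at 86.4 ± 29.0. EMT-like areas and carcinoma overlapped for miR-152, while carcinoma and metastasis did not.

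**Figure D1:**
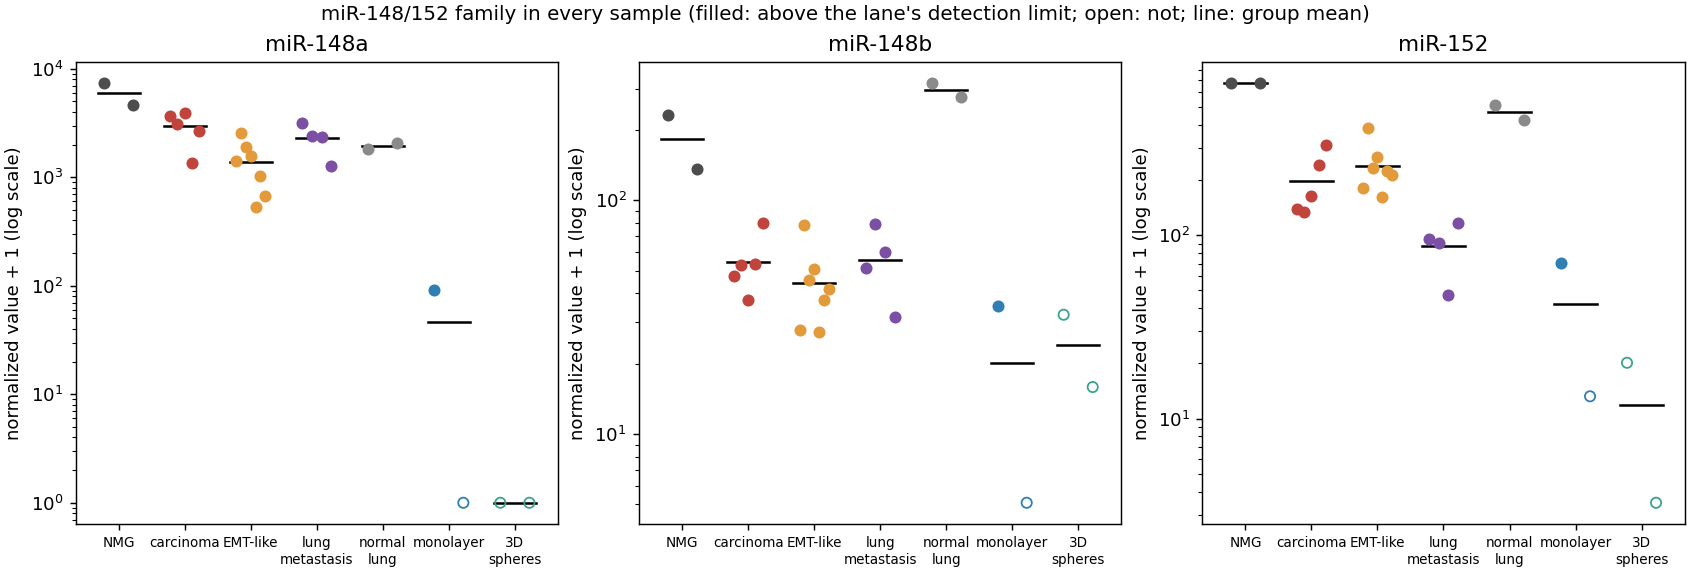
Normalized value + 1 on a log axis for miR-148a, miR-148b and miR-152 in each of the 24 samples by group, with filled points above the lane's detection limit, open points not above it and a line at the group mean. On this TMM scale each member is lower in all carcinoma and EMT-like samples than in both NMG samples. miR-152 is lower in all 4 metastases than in all 12 PT samples.

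Normal and malignant mammary tissue were compared to see which miRNAs differ in the tumors. miR-148b was 557 and 363 in NMG as deposited, while carcinoma samples held 42, 44, 38, 42 and 58 and EMT-like samples 28 to 77. On the normalized scale, NMG was at 230 and 135 and no tumor area was above 79.0. miR-148b was 3.36-fold lower in carcinoma (log2 fold change -1.75, SE 0.56, limma adjusted p = 0.0212) and 4.26-fold lower in EMT-like areas (-2.09, SE 0.53, adjusted p = 0.00533).

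miR-152 was 1629 and 1815 in NMG as deposited, against 125, 113, 169, 192 and 228 in carcinoma and 178 to 381 in EMT-like areas. The NMG samples, at 671 and 674 normalized, lay above every PT sample, the highest of which was 381. miR-152 was 3.60-fold lower in carcinoma (-1.85, SE 0.58, limma adjusted p = 0.0199) and 2.93-fold lower in EMT-like areas (-1.55, SE 0.56, adjusted p = 0.0443).

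miR-148a had the highest values of the family, with 17932 and 12380 in NMG as deposited. Carcinoma held 3309, 2642, 4128, 1074 and 1954, and EMT-like areas 584 to 2560 with a median of 1477. Both NMG samples lay above all PT samples after TMM scaling as well, at 7390 and 4596 against at most 3951. As a share of the lane's mouse miRNA sum the groups overlapped, at 3.20% and 2.35% in NMG and up to 2.51% in carcinoma. The difference did not pass the test in carcinoma (-1.08, 95% confidence interval -3.10 to 0.95, limma adjusted p = 0.485) or in EMT-like areas (-2.26, -4.19 to -0.32, adjusted p = 0.0828). Its SE was 0.97 and 0.93, from a spread over all groups that takes in the monolayers, at 6.51 and 0 on the log2 scale. With only the groups compared the differences were the same, with a limma adjusted p of 0.166 in carcinoma and 0.0214 in EMT-like areas.

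Thus 2 of 3 members were called lower against NMG in each tumor area, where 29.3% of all probes were called in carcinoma (23.8% lower) and 24.9% in EMT-like areas (20.4% lower). The median log2 fold change of the members was -1.75 in carcinoma and -2.09 in EMT-like areas, beside -0.68 and -0.30 over all probes tested. Among the 196 probes above the limit in at least 12 samples, as the members were, 40.3% and 39.8% were called, with medians of -0.17 and -0.33. Both comparisons share the NMG samples.

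The NMG calls depended on how lanes were scaled, and NMG lanes had TMM factors of 2.43 and 2.69 against 0.524 to 1.33 in tumor samples. With scaling by the 100 most abundant miRNAs, miR-148b was at -0.85 in carcinoma (limma adjusted p = 0.259) and -0.91 in EMT-like areas (adjusted p = 0.169), and miR-152 at -0.94 (adjusted p = 0.259) and -0.37 (adjusted p = 0.702). That scaling moved the median of all probes in the carcinoma comparison from -0.68 to -0.11, and in the EMT-like one from -0.30 to 0.12. Relative to the median, miR-148b was at -1.07 with TMM and -0.74 with this scaling in carcinoma, and miR-152 at -1.17 and -0.84. In EMT-like areas these values were -1.79 and -1.03 for miR-148b, and -1.25 and -0.48 for miR-152. With no scaling, miR-148a was called as well, at -2.65 in carcinoma (adjusted p = 0.0212) and -3.44 in EMT-like areas (adjusted p = 0.00323). The median of all probes without scaling was -1.83 in carcinoma and -1.16 in EMT-like areas. Relative to it miR-148a was at -0.82 and -2.28. The calls of miR-148b and miR-152 in carcinoma were also lost without either NMG sample (adjusted p from 0.0510 to 0.233), as was that of miR-152 in EMT-like areas (0.208 and 0.214), which was lost without EMT-like replicate 1, 3, 5, 6 or 7 too (0.0572 to 0.0711). That of miR-148b in EMT-like areas was lost without NMG replicate 1 (-1.71, adjusted p = 0.126).

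**Figure D2:**
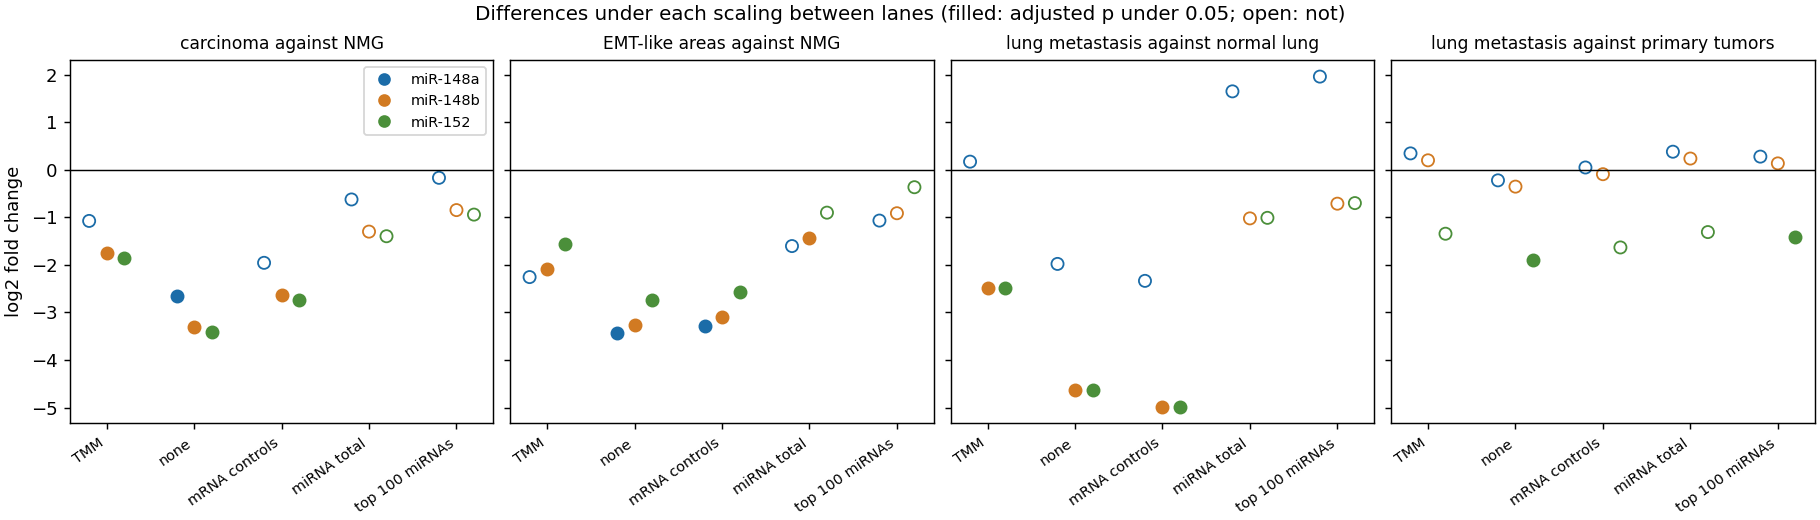
Log2 fold change of each member (colours) under TMM, no scaling, the mRNA controls, the miRNA total and the 100 most abundant miRNAs, in 4 comparisons; filled points had an adjusted p under 0.05 and open points did not. All members lie below 0 against NMG under all 5 scalings, with miR-148b in carcinoma ranging from -3.31 to -0.85, while miR-148a against normal lung lies on both sides of 0.

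A measure that needs no scaling is the place of a member among the 566 mouse probes of its lane. miR-148a was 6th and 13th in NMG, 9th to 25th in carcinoma and 15th to 35th in EMT-like areas. In metastasis it was 9th to 24th, and in normal lung 36th and 39th. miR-148b was 76th and 96th in NMG and 103rd to 150th over the PT samples. miR-152 kept a similar place in NMG (47th and 50th) and in EMT-like areas (48th to 56th), and stood 50th to 76th in carcinoma and 84th to 118th in metastasis.

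Markers of other cells moved with these differences. The 5 of 6 fibroblast and smooth muscle miRNAs on the panel, which include miR-143, summed to 15164 to 16236 normalized in NMG and 1646 to 4173 in PT, with 4 of 5 called lower in each area. The fat list was at 1704 and 1757 in NMG and 173 to 353 in PT, with 3 of 4 called lower in each area. The red blood cell list was at 8118 to 8509 in NMG and 83.7 to 297 in PT, with miRNAs such as miR-451. Both miR-126 probes, which mark endothelium, were called lower in each area (10971 to 17649 against 1067 to 2626), and so were 3 of 4 leukocyte miRNAs (2500 and 5613 against 230 to 812, with the other 1 called higher in carcinoma). Striated muscle miRNAs summed to 44.5 and 1027 in NMG and 10.5 to 75.2 in PT, with 2 of 4 called in carcinoma and 1 of 4 in EMT-like areas, all lower. Of 7 epithelial miRNAs, the miR-200 group with miR-203 and miR-205, carcinoma had 1 and EMT-like areas had 4 called lower. Their part in the differences of the members was not tested. In tissue samples, fewer cells of a type and less miRNA per cell cannot be told apart.

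The shifted relatives did not share 1 direction against NMG. miR-130a was 2.90-fold lower in carcinoma (limma adjusted p = 0.0235) and, in EMT-like areas, 2.67-fold lower (adjusted p = 0.0307). miR-130b was 4.05-fold higher in carcinoma (adjusted p = 8.95e-05) and 3.25-fold higher in EMT-like areas (adjusted p = 0.000354), from 36 ± 13.2 normalized in NMG to 150 ± 42.4 and 117 ± 20.2. miR-301a was at 0.10 (adjusted p = 0.950) and -0.55 (adjusted p = 0.245) on the log2 scale, and miR-301b was below the limit in all NMG and PT samples.

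Carcinoma areas (n = 5) and EMT-like areas (n = 7) of primary tumors, of which 4 of each shared a source, were compared to find miRNAs that differ between epithelial and spindle-shaped regions. No member was called, where 0.172% of all probes were (1 probe). miR-148a spanned 1341 to 3951 normalized in carcinoma and 529 to 2563 in EMT-like areas. Its difference was 1.18 (95% confidence interval -0.24 to 2.60, limma adjusted p = 0.448). The SE of 0.68 rests on the spread over all groups, monolayers included, as do the miR-148a intervals below. With only the groups compared the limma adjusted p was 0.240. miR-148b differed by 0.34 (-0.47 to 1.15, adjusted p = 0.748) and miR-152 by -0.30 (-1.14 to 0.55, adjusted p = 0.802). None of these intervals excludes a 2-fold difference.

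**Figure D3:**
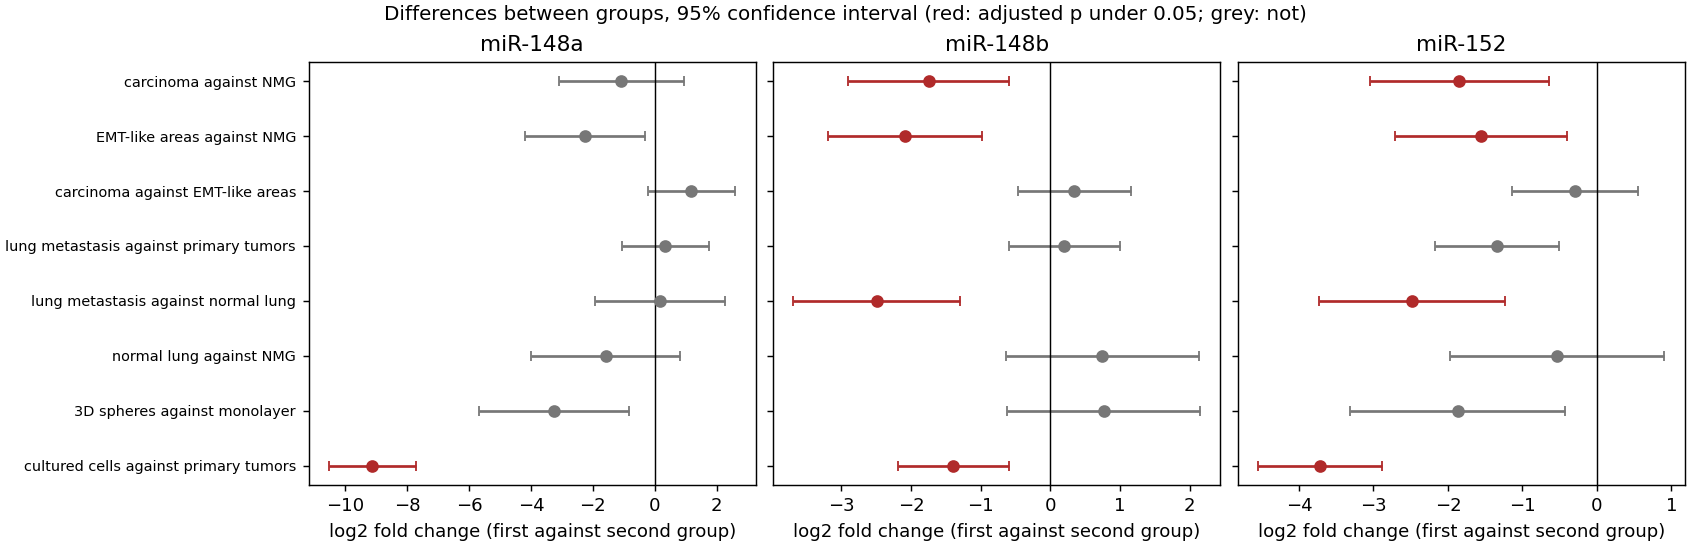
Log2 fold change of each member in the 8 comparisons with its 95% confidence interval; red marks an adjusted p under 0.05 and grey the rest. miR-148b and miR-152 are red in both comparisons with NMG, in lung metastasis against normal lung and in cultured cells against PT, and miR-148a is red in the last of these, where 3 of 4 culture lanes were under the limit.

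Ratios between 2 members in the same lane do not depend on the scaling between lanes. They were taken as log2 of (deposited value + 1) over (deposited value + 1) and compared between groups with exact two-sided permutation tests, adjusted over 6 tests. Areas of 1 animal counted as separate samples in these tests. The ratio of miR-148b to miR-152 was 0.341, 0.395, 0.229, 0.223 and 0.258 in carcinoma, and 0.153 to 0.204 in EMT-like areas with a median of 0.190. Every carcinoma sample lay above every EMT-like sample. The ratio was 1.56-fold higher in carcinoma (0.64 on the log2 scale, exact permutation p = 0.00253, the smallest that 792 splits allow, adjusted p = 0.00989). With a higher background, in which 2 SD of the negative controls were subtracted as well, the difference was 0.53 and no longer passed (exact permutation, adjusted p = 0.0909).

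The ratio of miR-148a to miR-152 was 26.3, 23.2, 24.3, 5.57 and 8.54 in carcinoma and 3.16 to 8.25 in EMT-like areas, with overlap. It was 2.78-fold higher in carcinoma (1.47, exact permutation p = 0.0227, adjusted p = 0.0341). The 3 high carcinoma samples were the 3 of the lettered series. Within that series the difference was 1.77 (3 against 2 samples) and within the numbered series it was 0.55 (2 against 5, with overlap), and neither size can reach 0.05 (exact permutation p = 0.20 and 0.381). Leaving out any 1 of carcinoma replicates 1, 2 and 3 gave 1.27 to 1.31 and an adjusted p of 0.0818 (exact permutation), and leaving out EMT-like replicate 5, 6 or 7 gave 0.0584. For miR-148b to miR-152 the groups did not overlap within either series, with differences of 0.83 and 0.40 (exact permutation p = 0.20 and 0.0952). The ratio of miR-148a to miR-148b did not pass, at 0.83 (exact permutation p = 0.0758, adjusted p = 0.0909), and passed without carcinoma replicate 4 (1.10, adjusted p = 0.0291).

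**Figure D4:**
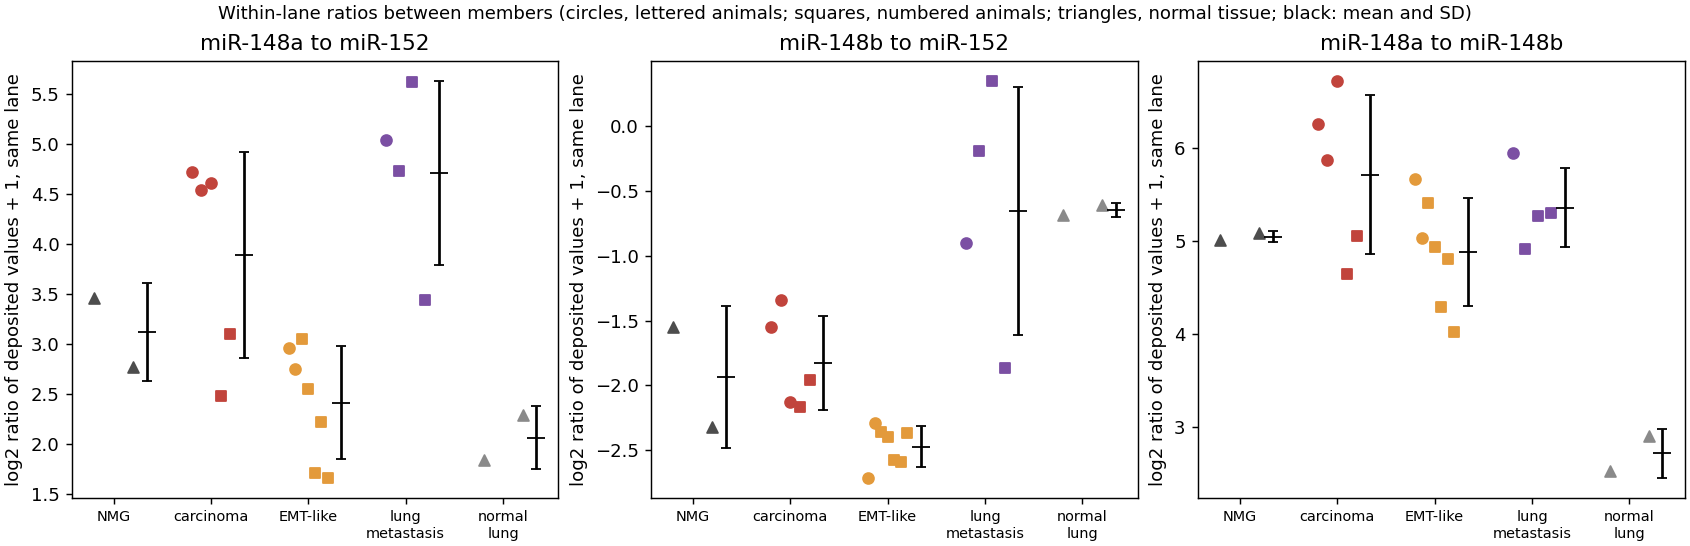
Log2 ratio of deposited values + 1 of 2 members in the same lane for the 20 tissue samples by group, with circles for lettered animals, squares for numbered animals and triangles for normal tissue; black marks give mean and SD. The miR-148b to miR-152 ratio of all 5 carcinoma samples lies above that of all 7 EMT-like samples, and the 3 lettered carcinoma samples carry the high miR-148a to miR-152 ratios.

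In 4 label sets, 3 single animals and the pool of 3, both areas came from the same source. The miR-148b to miR-152 ratio was higher in carcinoma in 4 of 4, by 0.19 to 1.16 on the log2 scale, and the miR-148a to miR-152 ratio in 3 of 4. miR-148a itself was higher in carcinoma in 3 of 4 sources, by up to 1.38, and in the other the difference was -0.52. The epithelial list summed to 930 to 5385 normalized in carcinoma and 59.4 to 1758 in EMT-like areas, with overlap and with 0 of 7 called. The fibroblast and smooth muscle list was at 1646 to 2959 and 1859 to 4173. Their part in the ratios was not tested.

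Lung metastases were compared with PT to describe the cells that had reached the lung. miR-152 was 72, 47, 36 and 79 in metastasis as deposited, and 113 to 381 in PT with a lane limit of at most 18.2 in the metastasis lanes. On the normalized scale metastases were at 94.8, 89.7, 46.2 and 115, and PT at 133 to 381. The groups did not overlap, and miR-152 was 2.54-fold lower in metastasis (-1.34, SE 0.40, 95% confidence interval -2.18 to -0.51), which missed the threshold (limma adjusted p = 0.0686). Among all probes 3.09% were called, and 8.16% of the 196 above the limit in at least 12 samples. The same difference passed with 7 of the other settings, among them no scaling (-1.90, adjusted p = 0.00557), scaling by the 100 most abundant miRNAs (-1.41, adjusted p = 0.0293), a fit of only the groups compared (-1.34, adjusted p = 0.0137) and the series of animals as a term (-1.37, adjusted p = 0.0136). It missed with the miRNA total (limma adjusted p = 0.0639), the mRNA controls (0.132) and a replicate block (0.0701). All 16 fits without a single sample missed as well (limma adjusted p from 0.0573 to 0.240). Over the settings other than left-out samples, 10 to 186 of all probes were called, against 18 in the main fit.

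miR-148a was 2402, 1268, 1814 and 867 in metastasis as deposited, and it did not differ detectably from PT (0.34, 95% confidence interval -1.05 to 1.74, limma adjusted p = 0.972). The same held for miR-148b, at 38, 41, 46 and 21 in metastasis (0.20, -0.60 to 0.996, adjusted p = 0.972). With no scaling both turned to the other side of 0, at -0.22 (adjusted p = 1) and -0.35 (adjusted p = 0.872).

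The within-lane ratios separated miR-152 from its relatives. The miR-148b to miR-152 ratio was 0.534, 0.875, 1.27 and 0.275 in metastasis, 2.93-fold higher than in PT (1.55, exact permutation p = 0.00330 over 1820 splits, adjusted p = 0.00989). The miR-148a to miR-152 ratio was 32.9, 26.4, 49.1 and 10.8, 3.21-fold higher than in PT (1.68, exact permutation p = 0.0165, adjusted p = 0.0330). Both ratios overlapped between metastasis and PT, and the overlap lay with carcinoma samples only. The geometric mean of miR-148a to miR-152 was 26.1 in metastasis, 14.8 in carcinoma and 5.32 in EMT-like areas. For miR-148b to miR-152 it was 0.636, 0.282 and 0.180. Metastasis was not tested against carcinoma alone. The miR-148a to miR-148b ratio differed by 0.13 (exact permutation p = 0.749, adjusted p = 0.749). Without metastasis replicate 1, 2 or 3 the miR-148a to miR-152 difference was 1.57, 1.67 or 1.38 and no longer passed (exact permutation, adjusted p = 0.0725, 0.0659 and 0.0725).

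Within the numbered series, 3 metastases and 7 PT samples, the differences were 2.20 for miR-148a to miR-152 and 1.77 for miR-148b to miR-152, with no overlap (exact permutation p = 0.0167 for both, the smallest that this size allows). miR-152 itself differed there by -1.55 with no overlap (exact permutation p = 0.0167). The lettered series held 1 metastasis, whose miR-152 lay below its 5 PT samples and whose 2 ratios over miR-152 lay above them.

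In 4 sources a metastasis could be set beside the EMT-like area of the same animals. miR-152 was lower in metastasis in 4 of 4, with log2 differences of -2.25 to -0.88, and miR-148a was higher in 4 of 4, by 0.63 to 1.16. The ratio of miR-148b to miR-152 was higher in 4 of 4, by 0.50 to 2.94. In the 2 sources that also had carcinoma, metastasis minus carcinoma was -0.54 and -1.78 for miR-152, and -0.14 and -0.21 for miR-148a. With 4 pairs no two-sided exact test can pass 0.05, so no p is given for these differences.

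**Figure D5:**
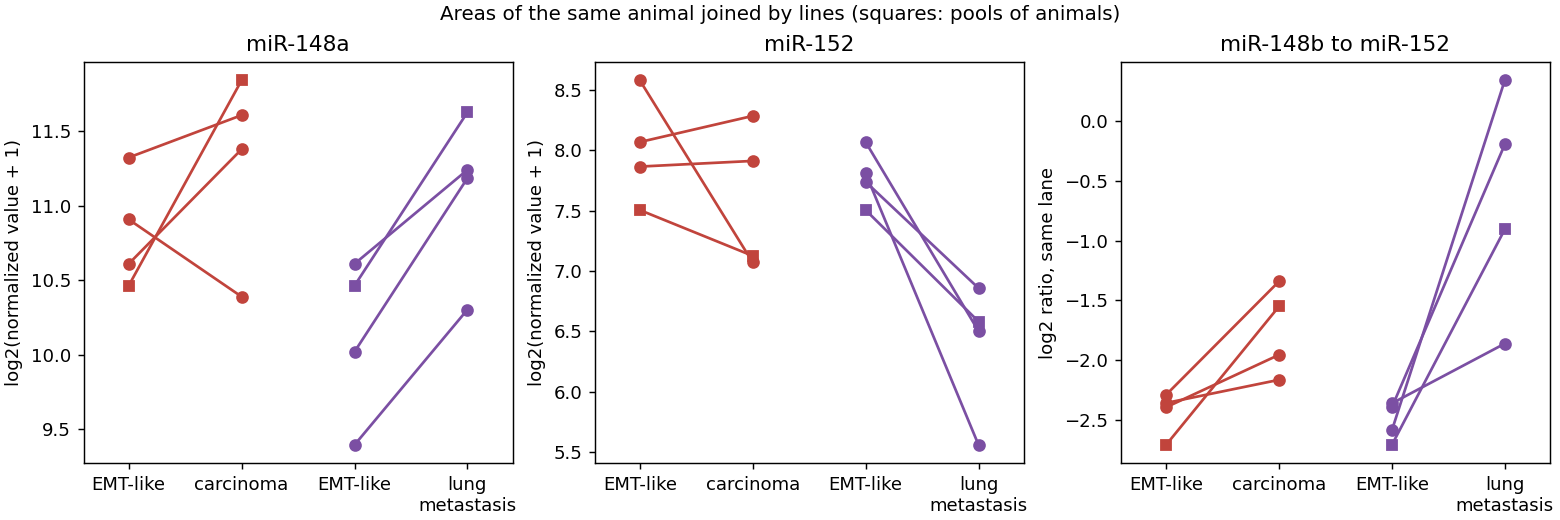
Lines join areas of the same animal (circles) or of the pool of 3 animals (squares), from EMT-like area to carcinoma in red and from EMT-like area to lung metastasis in purple; the axes are log2(normalized value + 1) for miR-148a and miR-152 and the same-lane log2 ratio for miR-148b to miR-152. In all 4 purple lines miR-152 falls and both miR-148a and the ratio rise.

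Other lists also moved between metastasis and PT. The fibroblast and smooth muscle list summed to 918 to 2082 normalized in metastasis and 1646 to 4173 in PT, with 2 of 5 called lower. The epithelial list was at 2509 to 4671 and 59.4 to 5385, with 1 of 7 called higher. The red blood cell list was at 348 to 533 and 83.7 to 297, with 1 of 3 called higher, and at 49121 to 55994 in normal lung. The leukocyte list was at 408 to 887 and 230 to 812, with 1 of 4 called higher, while 0 of 2 endothelial, 0 of 4 fat and 0 of 4 striated muscle miRNAs were called. The miR-148b to miR-152 ratio of normal lung itself was 0.622 and 0.654. The part of these cells in the lower miR-152 was not tested. Of the shifted relatives, 0 of 4 were called in this comparison.

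Lung metastasis was also compared with normal lung parenchyma. miR-148b was 510 and 1555 in normal lung as deposited, which after scaling became 316 and 276, against 30.6 to 78.2 in metastasis. It was 5.63-fold lower in metastasis (-2.49, SE 0.58, limma adjusted p = 0.00138). miR-152 was 821 and 2379 in normal lung, 509 and 422 after scaling, against 46.2 to 115 in metastasis, and was 5.59-fold lower (-2.48, SE 0.60, adjusted p = 0.00201). miR-148a, at 1819 and 2057 in normal lung and 1263 to 3163 in metastasis after TMM scaling, overlapped (0.17, limma adjusted p = 0.919). This depended on the scale. As deposited, metastasis (867 to 2402) lay below normal lung (2937 and 11591). As a share of the lane's mouse miRNA sum it lay above, at 0.752% to 2.12% against 0.498% and 0.496%.

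The 2 called members stood beside a background of 49.2% of all probes called (42.2% lower) and a median of all probes of -0.90. Among the 196 probes above the limit in at least 12 samples, 55.1% were called, with a median of -0.60. With the 100 most abundant miRNAs as the scale, that median was -0.03, miR-148b was at -0.71 (limma adjusted p = 0.280) and miR-152 at -0.70 (adjusted p = 0.349). Both calls held when each of the 6 samples was left out in turn, normal lung replicate 2 included, with adjusted p from 0.00130 to 0.0265. miR-148a relative to the median of all probes was at 1.07 with TMM, 0.35 with no scaling and 1.99 with the 100 most abundant miRNAs. Endothelial miRNAs, at 67772 to 70141 in normal lung and 819 to 3114 in metastasis, were called lower in 2 of 2, and red blood cell miRNAs in 3 of 3. Fibroblast and smooth muscle miRNAs were called lower in 4 of 5, leukocyte, striated muscle and fat miRNAs in 3 of 4 each, and epithelial miRNAs in 1 of 7, and 1 of 4 leukocyte miRNAs was called higher. Their part in the lower miR-148b and miR-152 was not tested. In the same comparison miR-130a was 8.24-fold lower (adjusted p = 5.37e-05) and miR-130b 2.57-fold higher (adjusted p = 0.00336).

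The tumor minus normal difference of each member was set side by side for lung and mammary gland. For miR-148a it was 0.17 in lung and -1.76 in mammary gland, a difference of 1.93 (SE 1.34, limma adjusted p = 0.444). For miR-148b and miR-152 the difference was -0.55 (adjusted p = 0.768) and -0.81 (adjusted p = 0.653), where 11.5% of all probes were called. In the normal tissues alone, normal lung against NMG, no member was called (11.7% of all probes). On the log2 scale miR-148a was at -1.59, with an interval of -4.01 to 0.83 (limma adjusted p = 0.466). miR-148b was at 0.74, -0.64 to 2.12 (adjusted p = 0.573), and miR-152 at -0.54, -1.98 to 0.90 (adjusted p = 0.703). With only the groups compared, miR-148a had a limma adjusted p of 0.0668. In both animals the miR-148a to miR-148b ratio was lower in lung than in NMG, at 5.75 and 7.45 against 32.1 and 34, with no test at 2 against 2.

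The cultured line was compared with the tumors it gave, and spheres with monolayers. miR-148a was 58 and -12 in monolayers and -9 and -10 in spheres as deposited, where a negative value means fewer counts than the negative controls. Only the 58 was above its limit of 21.4. miR-148b was 22 and 2 in monolayers and 18 and 6 in spheres, and miR-152 was 45 and 6 in monolayers and 11 and 1 in spheres, with only monolayer replicate 1 above the limit for each. Since both sphere lanes were under the limit, folds are bounds against that limit. Against PT and with TMM scaling, mean miR-148a was at least 54.4-fold lower in spheres, miR-152 at least 6.68-fold and miR-148b at least 1.45-fold. Other scalings give other bounds. The sphere factors were 0.574 and 0.403 with TMM and 0.125 and 0.0943 with the 100 most abundant miRNAs. Single miR-148b samples overlapped, with sphere replicate 1 at 31.4 normalized and EMT-like replicates 1 and 5 at 26.8 and 26.3.

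All 3 members were called lower in cultures than in PT (limma adjusted p = 2.71e-10 for miR-148a, 0.00715 for miR-148b and 1.29e-07 for miR-152), beside 30.4% of all probes called (22% lower). Among the 196 probes above the limit in at least 12 samples, 64.3% were called, with a median of -1.12. The call of miR-148b did not hold across scalings, since with the 100 most abundant miRNAs it was higher in cultures (0.83, adjusted p = 0.0428) and with the miRNA total it did not pass (-0.40, adjusted p = 0.494). It was also lost without monolayer replicate 2 (-0.70, adjusted p = 0.159) or sphere replicate 2 (-1.14, adjusted p = 0.0694). The median of all probes was -0.08 with TMM and 0.34 with the 100 most abundant miRNAs. miR-148a and miR-152 were called lower in every setting run.

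Markers of other cells differed between cultures and PT in both directions. Both endothelial probes were at 0 in all 4 lanes, and all 3 red blood cell miRNAs and 5 (monolayers) or 7 (spheres) of 7 epithelial miRNAs were under the limit. Fibroblast and smooth muscle miRNAs summed to 424 to 1376 normalized in cultures, with 4 of 5 called lower than in PT, and leukocyte miRNAs to 99.1 to 139, with 2 of 4 called lower and 1 higher. Striated muscle miRNAs were at 104 to 169, with 2 of 4 called higher, and fat miRNAs at 93.8 to 261, with 1 of 4 called lower. The part of host cells in the tumor values was not tested. Of the shifted relatives, miR-130a (4.54-fold), miR-130b (2.01-fold) and miR-301a (3.55-fold) were called lower in cultures. Between spheres and monolayers no member was called, where 4.63% of all probes were. The differences were -3.25 for miR-148a (limma adjusted p = 0.139), 0.76 for miR-148b (adjusted p = 0.850) and -1.87 for miR-152 (adjusted p = 0.154). Without monolayer replicate 1, the only lane above the limit, they were 0.00, 2.16 and -0.66, of which miR-148b alone passed (adjusted p = 0.0434), with all its lanes under the limit. Without monolayer replicate 2, miR-148a (-6.51, adjusted p = 1.77e-06) and miR-152 (-3.08, adjusted p = 0.00693) passed and miR-148b was at -0.63, and miR-152 passed without sphere replicate 1 as well (-3.14, adjusted p = 0.0143).

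The members were not each other's closest partners over the samples. Among 195 other mouse miRNAs above the limit in at least 12 samples, miR-148a was most like miR-19b (Pearson r = 0.979), miR-106b (0.964) and miR-340-5p (0.939) over the 24 samples. miR-148b was most like miR-30c (0.933), miR-26b (0.932) and miR-151-5p (0.902), and miR-152 most like miR-450a-5p (0.938), miR-143 (0.911) and miR-223 (0.907). By the same measure miR-152 was 27th for miR-148a (0.841) and miR-148b was 72nd (0.658), and miR-148b and miR-152 had r = 0.740. These values describe 24 samples that share lanes, scaling factors and low values in cultures, and carry no p. Over the 16 tumor samples r was -0.21 for miR-148a with miR-152, 0.06 for miR-148b with miR-152 and 0.55 for miR-148a with miR-148b. Over the 20 tissue samples, without the cultures, r was 0.22, 0.63 and 0.49 for these pairs, beside 0.84, 0.74 and 0.66 over all 24.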

How the data were processed

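The score values were deposited by the authors as whole nCounter counts after subtraction, lane by lane, of what the 6 negative controls averaged. The lowest was -20. The submitters' processing notes name Partek, and no role for it in these values is given in the sources used here. Values were floored at 0, divided by TMM factors (trimming 30% of log ratios, 5% of levels), and taken as log2(value + 1). All 7 groups were fitted together with limma 3.58.1 (trend) in R 4.3.3, over 583 probes above 0 in at least 1 sample, since a count test could not be used on these values. Ratios were tested with scipy 1.17.1 under Python 3.11.15. The fit was run on simulated data with random seed 1, with the same spread setting for all probes and changes in NMG only. That simulation did not cover the uneven spread between culture lanes. Members, lists of markers and relatives, and the rule for the most alike miRNAs (3 per member by Pearson r) were chosen with earlier results of these data known. Replicates shared at most 6.04% of values. Replicates of 1 group came from separate animals or cultures as far as the labels say. For normal tissues, with 2 samples a group, p-values rest on the spread of all groups.

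Tumor areas and normal tissues that share an animal, and cultures that share a number, were checked for pairing. Their deviations correlated at -0.31 to 0.30 over tumor pairs, and at -0.13 and 0.06 for normal tissues and cultures. Other settings were no scaling, scaling by the 100 most abundant miRNAs, by the miRNA total or by 4 mRNA controls, a filter keeping probes that reached 20 in 2 or more samples, a pseudocount of 10, a higher background, only the groups compared, a replicate block, a term for the series and each sample left out. The contrast of lung with mammary gland was added after the data were seen.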

Additional observations from a re-analysis of the deposited data

How the results depend on the processing

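Apart from leaving out samples, 197 of 234 values kept their direction and side of the threshold. These values include comparisons in which the member was not called. Of the calls of members, only those of miR-148a and miR-152 in cultures against PT held under every scaling. With no scaling, miR-148a passed against NMG in carcinoma (-2.65) and EMT-like areas (-3.44), miR-152 passed in metastasis against PT (-1.90), and 4 values turned: miR-148b in carcinoma against EMT-like areas (-0.042), miR-148a against normal lung (-1.98), and miR-148a (-0.22) and miR-148b (-0.35) in metastasis against PT. Without scaling, the median of all probes against NMG was -1.83 in carcinoma and -1.16 in EMT-like areas. With the mRNA controls, miR-148a passed in EMT-like areas against NMG (-3.28), and miR-148a against normal lung (-2.34), miR-148b in metastasis against PT (-0.093) and miR-152 in normal lung against NMG (0.70) turned.

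With the 100 most abundant miRNAs, calls were lost for miR-148b and miR-152 in carcinoma against NMG (-0.85 and -0.94), EMT-like areas against NMG (-0.91 and -0.37) and metastasis against normal lung (-0.71 and -0.70), miR-148b turned in cultures against PT (0.83) and in normal lung against NMG (-0.039), and miR-152 passed in metastasis against PT (-1.41) and spheres against monolayer (-2.12). With the miRNA total, calls were lost for miR-148b and miR-152 in carcinoma (-1.30 and -1.40), miR-152 in EMT-like areas (-0.90), both against normal lung (-1.02 and -1.01) and miR-148b in cultures (-0.40), and miR-148b turned in normal lung against NMG (-0.13). The cause was not tested.

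miR-148a in EMT-like areas against NMG passed with a pseudocount of 10 (-2.25), the higher background (-2.27) and only the groups compared (-2.26). miR-152 in metastasis against PT passed with the filter (-1.34), the pseudocount of 10 (-1.25), the higher background (-1.69), only the groups compared (-1.34) and the series term (-1.37). The ratio of miR-148b to miR-152 in carcinoma against EMT-like areas missed with the higher background (0.53).

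Leaving out single samples, with a lone sample of a group taken to vary like the other groups and lane factors kept, log2 differences ranged from -2.13 to -1.37 (miR-148b) and -2.03 to -1.73 (miR-152) in carcinoma against NMG, -2.47 to -1.71 and -1.67 to -1.47 in EMT-like areas against NMG, -6.51 to 0.00 (miR-148a), -0.63 to 2.16 (miR-148b) and -3.14 to -0.60 (miR-152) in spheres against monolayer, -2.10 to -0.70 (miR-148b) in cultures against PT and -0.0085 to 0.43 (miR-148a) against normal lung. The call of miR-152 in EMT-like areas was lost in 7 of 9 such fits. Ratio differences ranged from 1.27 to 1.83 (miR-148a to miR-152) and 0.58 to 1.10 (miR-148a to miR-148b) in carcinoma against EMT-like areas, and from 1.38 to 2.10 and -0.064 to 0.28 in metastasis against PT. With the replicate block (correlation -0.01), miR-148b in EMT-like areas against NMG was at -2.09, and no call of a member changed.

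The count of all probes called also moved with the settings other than left-out samples, from 132 to 318 in carcinoma against NMG (171 as reported), 125 to 317 in EMT-like areas (145), 0 to 7 in carcinoma against EMT-like areas (1), 10 to 186 in metastasis against PT (18), 170 to 389 against normal lung (287), 30 to 160 in normal lung against NMG (68), 0 to 41 in spheres against monolayer (27) and 134 to 375 in cultures against PT (177). With 2 samples each for NMG, normal lung and each culture, precision is limited by their number, and values near the detection limit carry little precision. miR-148b, at 21 to 77 as deposited in tumor samples, lies closest to that limit.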
